A study of Mus musculus with 12 samples.

Results

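The cells described here came from subcutaneous MC38 tumors, grown from a mouse colon carcinoma cell line, in CC002 F1 mice, and the comparison was between an antibody against PD-1 (aPD1) and its isotype control. They were all cells that the deposited annotation assigns to strain CC002, 12309 of 93126 cells, from 6 of 48 tumors. Of the CC002 cells, 4075 came from 3 isotype tumors and 8234 from 3 aPD1 tumors. The other tumors, which entered the fits for the estimate of spread, came from 7 other hosts given the same 2 antibodies, namely C57BL/6J (B6) mice and F1 mice of C57BL/6J crossed with CC001/UncJ, CC007/UncJ, CC036/UncJ, CC075/UncJ, CC079/TauUncJ or CC080/TauUncJ. Each of the 6 CC002 F1 hosts was an F1 animal of a cross of C57BL/6J with CC002/UncJ. All hosts of the study were female and aged 8 to 12 weeks when tumor cells were injected. CC002/UncJ is an inbred strain of the Collaborative Cross, a mouse panel bred from several founder strains, and the F1 cross gave every host the C57BL/6J genome in which MC38 arose. Each of the 6 animals was injected with MC38 cells and, at a tumor volume of 75 to 110 mm3, with 200 µg of isotype antibody 2A3 or of aPD1 antibody 29F.1A12 into the peritoneum. Tumors were taken 48 h later, frozen and sorted to 90% CD45+ and 10% CD45- cells, so that the shares below describe sorted cells and not the whole tumor. The study classed CC002 F1 hosts as responders from tumor growth in other animals, and the response of the 6 hosts themselves was not part of the data analysed here.

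PD-1, encoded by Pdcd1, is an inhibitory receptor of activated T cells, and its ligand PD-L1, encoded by Cd274, is found on myeloid and tumor cells. Antibodies that block PD-1 release T cells from this inhibition. Activated T and NK cells secrete IFN-γ, which acts on macrophages and induces the chemokines Cxcl9 and Cxcl10, the GTPases of the Gbp and Irg families, antigen presentation genes and Cd274 itself.

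The treatment of a cell was read from a hashtag, an antibody that carries a 15-base sequence and marks the cells of 1 specimen before 4 specimens are pooled in a library. The CC002 F1 isotype tumor and the aPD1 tumor of a pair shared a library in pools 3, 5 and 12. The sequences are shown because they alone assigned a cell to isotype or aPD1 within a library.
isotype, pools 3 and 5 (hashtag 0301): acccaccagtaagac
aPD1, pools 3 and 5 (hashtag 0302): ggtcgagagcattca
isotype, pool 12 (hashtag 0303): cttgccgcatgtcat
aPD1, pool 12 (hashtag 0304): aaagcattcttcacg
Any pair of these sequences differed at 11 to 13 of the 15 positions. No hashtag marked both treatments, so an effect of the hashtag and an effect of the antibody cannot be told apart. Of 7205 to 9677 cell barcodes a pool, 92 to 122 were shared between a pair of pools.

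The isotype tumor of pool 12 stood apart in size. It held 248 cells and 808362 unique molecular identifiers (UMIs, each marking 1 captured transcript), against 1904 to 2838 cells and 6368800 to 15964134 UMIs in the other 5 tumors. The median UMI count per cell was 2389 in that tumor and 2625 to 4434 in the others, the highest being its own pool partner, the aPD1 tumor of pool 12. Results that rest on the small tumor are therefore given with their values per pool. Levels are counts summed over the cells of a tumor and scaled to 1000000 UMIs (CPM), and n = 3 tumors per treatment throughout.

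The deposited annotation gives each cell 1 of 27 cluster numbers without names. Of these, 10 clusters were taken as monocyte/macrophage-like (called macrophages) and 9 as T/NK-like (called T/NK cells). Clusters 5 and 26 of the macrophages held all 10 macrophage markers. Among their leading genes each had 1 gene from the dendritic cell marker lists used here, Ccr2 and Cadm1. Ccr2 also stands in the list of monocyte genes. Both clusters were counted with the macrophages as the study did. In the macrophages all 10 macrophage markers, among them Adgre1, Lyz2 and C1qa, were present in each tumor at a summed level of 13104 to 17436 CPM, and the 9 T/NK markers summed to 4.76 to 22.9 CPM. In the T/NK cells the 9 T/NK markers, among them Cd3e, Trac and Nkg7, summed to 6256 to 7456 CPM. Markers of MC38 cells summed to 13.6 to 50.8 CPM over all cells of a tumor, and no cluster was named for them.

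No change in the makeup of the sorted cells was called. Macrophages were 74.8, 59.4 and 50.4% of the cells in the isotype tumors of pools 3, 5 and 12 and 69.6, 64.7 and 74.1% in the aPD1 tumors of the same pools. T/NK cells were 11.8, 24.0 and 36.3% and 16.6, 24.6 and 12.5%. The extremes of both classes in the isotype group came from pools 3 and 12, and the aPD1 values lay inside the isotype range. Means were 61.5% ± 12.3 (SD) against 69.5% ± 4.75 for macrophages (exact permutation test, two-sided, p = 0.4) and 24.0% ± 12.2 against 17.9% ± 6.17 for T/NK cells (p = 0.7, exact), where 3 against 3 tumors cannot give a p below 0.1. Without pool 12 the T/NK means turned round, 17.9% in isotype and 20.6% in aPD1 tumors, and the macrophage means were nearly equal, 67.11% and 67.15%.

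The share of the cytotoxic T lymphocyte (CTL) clusters was highest in the small isotype tumor. Cluster 3, led by Cd8a, Cd8b1, Pdcd1 and Lag3, was 2.47, 9.62 and 12.1% of cells in the isotype tumors and 4.50, 10.8 and 3.72% in the aPD1 tumors. Its share was higher under aPD1 in pools 3 and 5 and lower in pool 12. Cluster 13, led by Il2, Ifng and Xcl1, was 0.840, 1.82 and 6.45% in isotype and 0.699, 1.23 and 0.745% in aPD1 tumors, lower under aPD1 in each pool. The highest value, 6.45% in the isotype tumor of pool 12, rests on 16 of 248 cells (exact binomial 95% interval 3.73% to 10.3%, for counting error only). edgeR's quasi-likelihood test on cell numbers gave a log2 difference of -1.44 ± 0.81 (SE) for cluster 13, which did not pass. By pool the share of cluster 13 differed by -0.142, -0.587 and -5.71 percentage points in pools 3, 5 and 12, so the difference was largest in the pool of the small tumor.

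Dendritic cells present tumor antigen to T cells, and their summed share was smaller under aPD1 in each pool, though not that of every class. The cDC1, cDC2, migratory and plasmacytoid clusters together were 9.51, 13.1 and 10.9% of cells in isotype tumors and 9.05, 6.80 and 9.04% in aPD1 tumors. The groups thus did not overlap, with means of 11.1% ± 1.79 and 8.30% ± 1.30 (exact permutation p = 0.1). That is the smallest p for 3 against 3 tumors in a test that ignored the pairing by pool. Of the 4 classes only cDC2, cluster 14, was lower in each pool, at 5.72, 7.54 and 6.85% and 5.16, 4.33 and 4.54%. The cDC2 difference, -0.562, -3.21 and -2.32 percentage points in pools 3, 5 and 12, was larger than that of the sum in pools 3 and 12 (-0.461 and -1.84). In the small isotype tumor the summed share rests on 27 cells and that of cDC2 on 17 of 248. The exact binomial 95% interval of that cDC2 share, 4.04% to 10.7% for counting error only, covers all aPD1 values of cDC2. Migratory dendritic cells were 1.79, 2.70 and 1.61% and 1.86, 0.951 and 2.09%, higher under aPD1 in pools 3 and 12. The cDC1 share was higher in pool 12 and the plasmacytoid share in pool 3. The CD4 cluster 10, which is led by Tnfsf11, Csf2, Cd4 and Cd40lg, also did not overlap, at 0.840, 1.46 and 1.61% against 0.582, 0.634 and 0.532%, but it held 4 to 28 cells a tumor. Clusters 14 and 10 were the 2 of 27 (7.41%) in which every aPD1 tumor was below every isotype tumor. Cluster 23, led by Il23r and Tcrg-C1, was the only 1 of the 27 in which every aPD1 tumor was above every isotype tumor (3.70%), with 2, 3 and 0 cells in the isotype tumors and 15, 7 and 7 in the aPD1 tumors. For cluster 23, 0 of 248 cells in the small tumor allows a share of up to 1.21%, taking 3 cells as the limit, and the exact binomial 95% interval reaches 1.48%, both above every aPD1 value.

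Across the 27 clusters, the edgeR test called 0 shares at a Benjamini-Hochberg adjusted p under 0.05 (percent called 0.0), 0 passed an unadjusted p under 0.05, and DESeq2 called 0. All adjusted p-values were at least 0.79. Shares were higher under aPD1 in all 3 pools for 2 clusters (7.41%), the Foxp3 cluster 8 and cluster 23, and lower in all 3 pools for 6 clusters (22.2%).

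**Figure D1:**
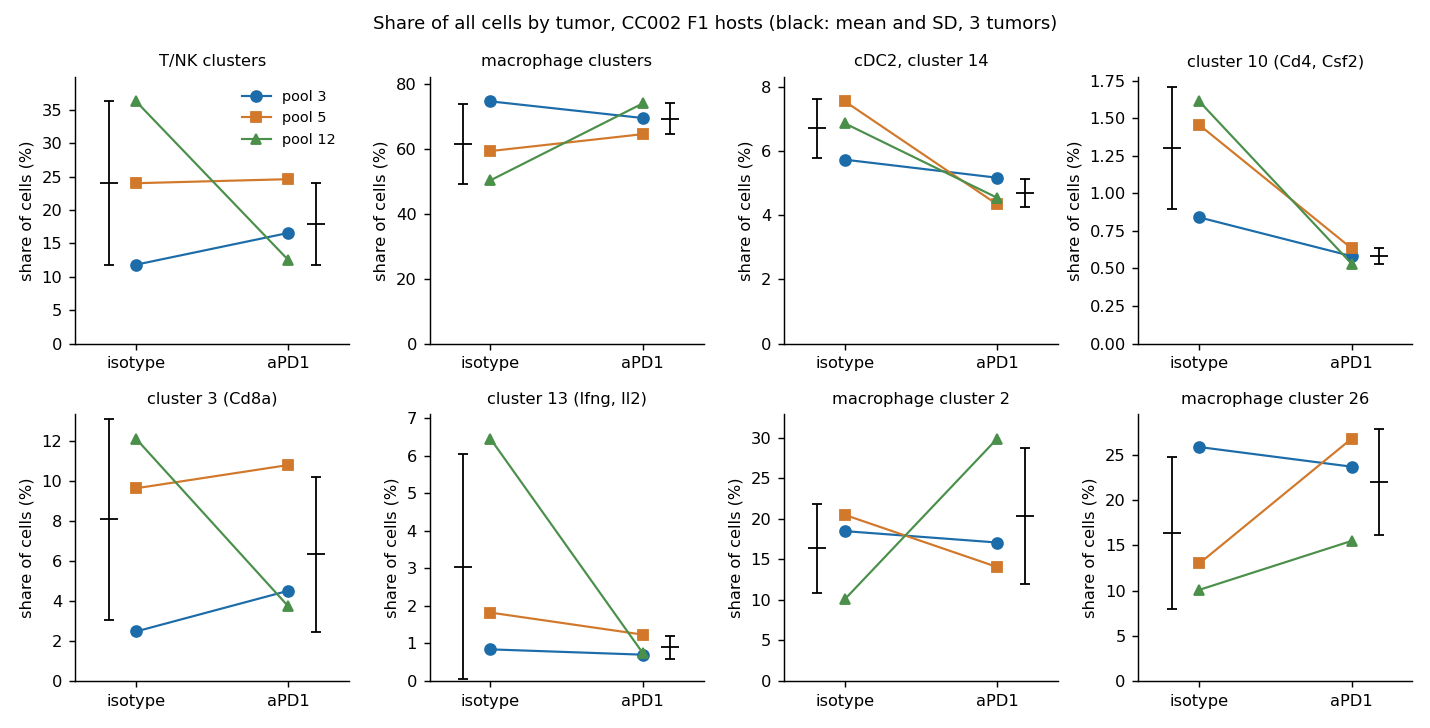
Share of all cells of a tumor (y axis, %) for 2 classes and 6 clusters, by treatment (x axis), with 1 line per pool and the mean and SD of 3 tumors in black. The isotype tumor of pool 12 is highest for T/NK cells at 36.3% and for cluster 13 at 6.45%, and the aPD1 values of cluster 14 and cluster 10 lie below all isotype values.

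In macrophages the test called 3 of 7816 genes (0.0384%), all lower under aPD1 and all hemoglobin genes, which belong to red blood cells and not to macrophages. Hbb-bs, a beta globin gene, was at 0, 0 and 1410.0 CPM in the isotype tumors and at 0, 0 and 2.72 CPM in the aPD1 tumors, a log2 difference of -8.68 ± 1.41 (SE; edgeR adjusted p = 0.0229). The alpha globin genes Hba-a1 (-8.29 ± 1.53, adjusted p = 0.0429) and Hba-a2 (-8.35 ± 1.46, adjusted p = 0.0429) had the same pattern. The level came from the small tumor, where 581 of its 582 Hbb-bs counts and 456 of its 459 Hba-a1 counts stood on 1 cell each. The summed erythroid markers were 2861 CPM in macrophages of that tumor and 0.781 to 6.76 CPM in the other 5. The 3 genes passed the filter on low levels, a mean of at least 10 CPM, only through this isotype tumor. Their calls therefore give no support for a difference between treatments. Without this tumor 0 genes were called by edgeR.

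No other macrophage gene passed, with 108 genes at an unadjusted p under 0.05 (1.38%), 36 of them higher (0.461%) and 72 lower (0.921%), and DESeq2 called 0. The 5 genes of smallest p in the higher direction were Sharpin, Scpep1, Inpp5b, Maea and Ocel1. Scpep1, a serine carboxypeptidase, was at 117, 113 and 136 CPM in isotype and 145, 142 and 158 CPM in aPD1 tumors, which did not overlap (log2 0.32 ± 0.11, adjusted p = 1.0). In the lower direction, after the globins, they were Ube2g2, Ss18l2, Zfp236 and Manba, with log2 differences of -0.53 to -0.39.

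The median over the IFN-γ-induced genes was above 0 in pools 3 and 5 and below 0 in pool 12. Of the 36 genes in this list 31 passed the filter on low levels, and 0 of them passed the test. Their median log2 difference was 0.40, against 0.01 over all macrophage genes, and by pool it was 0.66 in pool 3, 0.49 in pool 5 and -0.33 in pool 12. All 31 were higher under aPD1 in pool 3, 30 in pool 5 and 8 in pool 12. Summed over the list, the level was 3163, 4109.6 and 6197 CPM in the isotype tumors and 5444, 5435 and 5759 CPM in the aPD1 tumors. The isotype tumor of pool 12, with 125 macrophages, thus stood above all aPD1 tumors, and the other isotype tumors below them.

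Cxcl9, the chemokine that draws CXCR3+ T cells, was at 909, 1403 and 1226 CPM in the isotype tumors and 1679.8, 1681 and 1591 CPM in the aPD1 tumors. Every aPD1 tumor was above every isotype tumor, as was so for 2.16% of all macrophage genes, and the fitted difference was 0.52 ± 0.51 (adjusted p = 1.0). Cxcl10, its close relative, was at 298, 228 and 552 CPM in isotype and 464, 377 and 406 CPM in aPD1 tumors, higher under aPD1 in pools 3 and 5 and lower in pool 12 (0.31 ± 0.34, adjusted p = 1.0). Cd274 was at 98.4, 128 and 298 CPM and 185, 181 and 272 CPM, and again the isotype tumor of pool 12 was the highest of all 6 (0.46 ± 0.44, adjusted p = 1.0). The GTPase genes of smallest p in the list were Tgtp2, at 17.4, 17.1 and 26.6 CPM and 33.9, 30.2 and 25.3 CPM (0.86 ± 0.40, adjusted p = 1.0), and Iigp1, at 47.8, 53.1 and 99.3 CPM and 104, 112 and 116 CPM (0.92 ± 0.53, adjusted p = 1.0). Iigp1 was higher under aPD1 in each pool and Tgtp2 in pools 3 and 5. In all, 8 of the 31 genes were higher in all 3 pools (Cd40, Fcgr1, Gbp7, Gbp2, Cxcl9, Irf8, Socs1 and Iigp1) and 0 were lower in all 3, where 9.71% and 10.8% of all macrophage genes were.

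**Figure D2:**
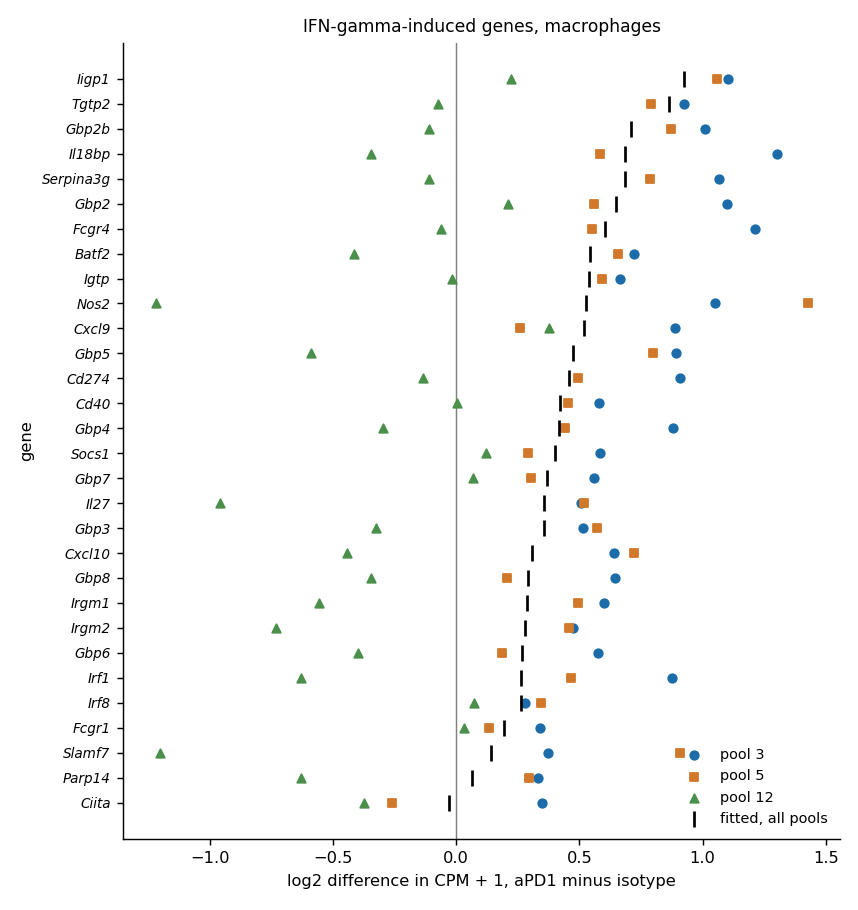
Log2 difference in CPM + 1 between the aPD1 and the isotype tumor of each pool (x axis) for 30 of the 31 IFN-γ-induced genes tested in macrophages (y axis, ordered by the fitted difference, black bars). Points of pool 3 and pool 5 lie to the right of 0 for 30 and 29 of the genes shown, and those of pool 12 for 8.

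The other macrophage lists held 0 called genes as well. An IFN-γ signature of 18 genes, of which 11 were tested, had a median of 0.18, below the 0.40 of the IFN-γ-induced list, and 0.46, 0.02 and 0.09 in pools 3, 5 and 12. The median log2 difference was 0.15 for 8 MHC class II presentation genes, 0.16 for 21 MHC class I presentation genes, 0.07 for 27 type I interferon-stimulated genes, 0.10 for 18 inflammatory genes such as Il1b, 0.04 for 15 monocyte genes, -0.03 for 17 complement and resident-like genes and -0.05 for 23 lipid-associated genes. The class II genes were higher under aPD1 for 8 of 8 in pool 3, 0 in pool 5 and 7 in pool 12. S and G2M phase genes had a median of 0.34 in macrophages, from -0.08 in pool 3 to 0.86 in pool 12. Macrophage cluster 17, with histone genes among its leading genes, was 4.52, 1.98 and 0.403% of cells in isotype and 3.65, 3.31 and 1.70% in aPD1 tumors. The part of this cluster in that median was not tested. Spp1, the osteopontin gene of lipid-associated macrophages, was at 1150.3, 859.9 and 402 CPM in isotype and 628, 543 and 1109 CPM in aPD1 tumors. It was lower under aPD1 in pools 3 and 5 and higher in pool 12, with a fitted difference of -0.05 ± 0.52. Macrophage cluster 2 held 27.1% to 53.0% of the Spp1 counts of a tumor. Its share of cells was 18.5, 20.5 and 10.1% in isotype and 17.1, 14.1 and 29.9% in aPD1 tumors, and the part of this makeup in the Spp1 level was not tested. Mmp12, the macrophage elastase, was lower under aPD1 in each pool, at 154, 112 and 223 CPM against 53.0, 45.8 and 119 CPM (-1.17 ± 0.64, adjusted p = 1.0). Ccl17, a chemokine for CCR4+ T cells, was at 22.9, 31.9 and 2.42 CPM and 1.09, 4.11 and 8.78 CPM, lower under aPD1 in pools 3 and 5 and higher in pool 12. It passed the filter only through the isotype tumors, so its levels are a description. Ccl17 is also a leading gene of the cDC2 cluster 14, whose share was lower under aPD1 in each pool, and the part of such cells in its level was not tested.

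The IFN-γ-induced genes were also followed within single clusters, and differences between clusters were not tested. In cluster 2, led by Cxcl2, Il1b and Ptgs2, 12 of 31 tested genes were higher at an unadjusted p under 0.05 (2.99% of all genes of that cluster), among them Irgm2, Irf8, Batf2 and Tgtp2, and 0 passed after adjustment. For 7 every aPD1 tumor was above every isotype tumor (4.78%). The median over all 31 genes was 0.71, from 1.16 in pool 3 and 0.71 in pool 5 to -0.34 in pool 12. In cluster 5, led by Ccr2, Clec5a and C3, the median was 0.70 and did not turn in pool 12 (0.80, 0.82 and 0.12). There 19 of 31 genes were higher in all 3 pools (13.3% of all genes of cluster 5), 15 did not overlap between treatments (5.63%), and 5 had an unadjusted p under 0.05 (2.23%). Cxcl10 of cluster 5 was at 197, 176 and 126 CPM in isotype and 628, 424 and 377 CPM in aPD1 tumors (1.50 ± 0.57, adjusted p = 1.0), and Cd274 was at 134, 181 and 154 CPM and 225, 269 and 248 CPM. For both genes every aPD1 value of cluster 5 was above every isotype value. The isotype values of pool 12 in cluster 5 rest on 32 cells, with 11 counts of Cd274.

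Cluster 21 was led by type I interferon genes such as Ifit3, Rsad2 and Cmpk2. Its Gbp2 level was 251, 286 and 372 CPM in isotype and 627, 641 and 511 CPM in aPD1 tumors, which did not overlap, as was so for 5.45% of the genes of cluster 21 (1.03 ± 0.27, adjusted p = 0.710). The isotype value of pool 12 rests on 10 cells and 13 Gbp2 counts. The median of the 31 IFN-γ-induced genes in cluster 21 was 0.37, and 4 were higher at an unadjusted p under 0.05 (2.37% of all genes of that cluster). In cluster 26, led by Fcrls, Ms4a7 and C1qc, the median was 0.38, with 3 of 30 genes higher in all 3 pools (12.8%). In the cDC2 cluster 14 it was 0.28. None of these genes passed the adjusted test in its cluster.

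In T/NK cells 0 of 7830 genes passed the edgeR test (percent called 0.0), DESeq2 called 0, and 290 had an unadjusted p under 0.05 (3.70%), 164 of them higher and 126 lower under aPD1. On simulated data of the same depth the macrophage test recovered 87% of genes changed by log2 1 and 95% of genes changed by log2 2, and the share test 87.5% of clusters changed by log2 2. The T/NK test recovered 64% of genes changed by log2 1 and 92% of genes changed by log2 2. False calls were 13 in macrophages, 6 in T/NK cells and 1 among shares. The simulated counts held no pool or host effects. The share simulation gave every cluster the same spread, set by hand and not estimated from the data, and changed only a few clusters. In the data the SE was 0.85 for the share of cluster 3, 0.77 for that of cluster 7 and 0.51 for Cxcl9 in macrophages. The recovery rate of the share test thus does not tell what that test could miss at the spread of these data. The recovery rates are averages and do not say which changes the tests could miss for a given gene or cluster. Serpinb9b, a serine protease inhibitor of the clade that blocks granzymes, had the largest difference among the 5 genes of smallest p in the higher direction. It was at 4.97, 3.13 and 3.96 CPM in isotype and 30.3, 31.5 and 25.3 CPM in aPD1 tumors (2.88 ± 0.76, adjusted p = 1.0). Its counts were low, 2, 3 and 1 in the isotype tumors against 31, 54 and 32 in the aPD1 tumors, and they stood on 1, 2 and 1 cells against 13, 17 and 11 cells. The gene passed the filter on low levels only through the aPD1 tumors, where it is high, so its difference is a description. Most of its counts lay in cluster 3, with 2, 3 and 0 counts against 24, 35 and 19. Smc2, a condensin subunit that compacts chromosomes in mitosis, was at 47.3, 61.6 and 27.7 CPM and 109.5, 79.3 and 82.3 CPM (0.90 ± 0.25, adjusted p = 1.0). In the lower direction, Stx11, a syntaxin needed for the release of cytotoxic granules, was at 147, 148 and 150.3 CPM and 72.4, 90.4 and 69.7 CPM (-0.91 ± 0.26). The noncoding RNA Mirt1 was at 29.8, 39.7 and 47.5 CPM and 15.6, 14.6 and 16.6 CPM (-1.34 ± 0.37). Neither Stx11 nor Mirt1 overlapped between treatments, as was so for 5.42% of T/NK genes in that direction.

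The median over the cell cycle genes of T/NK cells was higher under aPD1 in each pool, with no gene passing the test. Of the 30 S and G2M phase genes 29 were tested, 0 passed after adjustment, and 4 had an unadjusted p under 0.05 (2.09% of all T/NK genes were higher at that level). The median was 0.63 against -0.01 over all genes, and 1.39, 0.35 and 0.29 in pools 3, 5 and 12. In all 3 pools 20 of the 29 genes were higher under aPD1 (14.6% of all genes) and 0 lower (13.6%), and for 13 every aPD1 tumor was above every isotype tumor (6.03%). Birc5, the survivin gene, was at 29.8, 57.5 and 63.3 CPM in isotype and 136, 101 and 108 CPM in aPD1 tumors (1.21 ± 0.46). Tpx2, a spindle assembly factor, was at 17.4, 41.8 and 23.7 CPM and 83.1, 55.4 and 56.2 CPM (1.12 ± 0.38, adjusted p = 1.0). The proliferation marker Mki67 was at 47.3, 102 and 127 CPM and 147, 148 and 167 CPM (0.80 ± 0.39, adjusted p = 1.0). For each of these 3 genes every aPD1 tumor was above every isotype tumor, and none passed adjustment. The makeup of the T/NK cells also varied. Cluster 1, with Hist1h2ac among its leading genes, had 2, 13 and 1 of the 225, 462 and 90 T/NK cells of the isotype tumors. In the aPD1 tumors it had 19, 29 and 6 of 427, 699 and 353. The part of this makeup in the cell cycle median was not tested.

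Within the CTL cluster 3 the same list had a median of 0.59 over 25 genes, 1.25, 0.65 and 0.22 by pool, and 7 genes were higher at an unadjusted p under 0.05 (2.39% of all genes of cluster 3). For 10 every aPD1 tumor was above every isotype tumor (6.94%). Stmn1, a microtubule regulator of dividing cells, was at 145, 162 and 113 CPM in isotype and 337, 311 and 165 CPM in aPD1 tumors of cluster 3 (0.93 ± 0.25, adjusted p = 0.398). Mki67 of cluster 3 was at 45.3, 48.1 and 47.2 CPM and 134, 76.7 and 106 CPM (1.04 ± 0.39, adjusted p = 0.966). Cluster 3 had 47, 185 and 30 cells in the isotype tumors and 116, 306 and 105 in the aPD1 tumors. An Mki67 count was found in 4.26, 5.95 and 10.0% of these cells in isotype and 18.1, 10.8 and 14.3% in aPD1 tumors. The isotype levels of Mki67 thus rest on few cells. Prf1, the perforin gene, was at 163, 182 and 302 CPM and 397, 269 and 425 CPM, higher in each pool (0.75 ± 0.33, adjusted p = 1.0). The median UMI count per cell of cluster 3 was 1806, 1849 and 2944.5 in the isotype tumors and 2411.5, 2344 and 3255 in the aPD1 tumors, higher under aPD1 in each pool, and its part in these values was not tested.

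**Figure D3:**
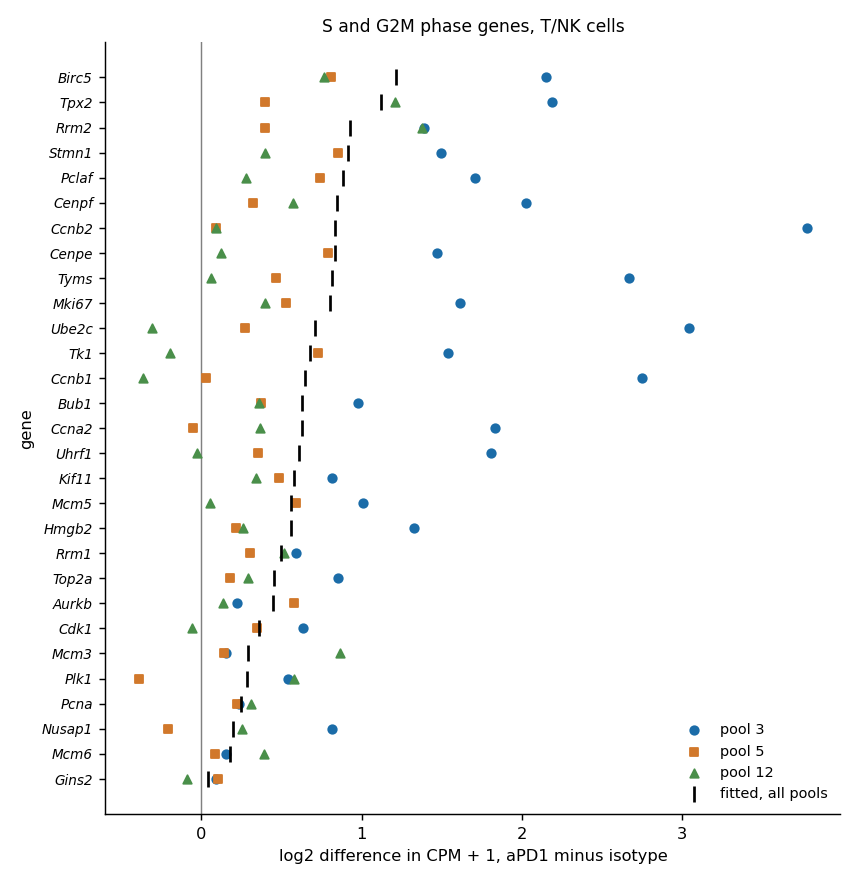
Log2 difference in CPM + 1 between the aPD1 and the isotype tumor of each pool (x axis) for the 29 S and G2M phase genes tested in T/NK cells (y axis, ordered by the fitted difference, black bars). In pool 3 all 29 points lie to the right of 0, in pool 5 26 and in pool 12 23.

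Fitted differences of the T cell receptor genes were mostly below 0. Of 18 genes 8 were lower under aPD1 in all 3 pools, against 13.6% of all T/NK genes (Cd28, Cd247, Cd2, Lck, Lat, Cd3d, Trac and Cd5), and 1, Zap70, was higher in all 3, against 14.6%. The median was -0.16 and 0 were called. Lat, an adaptor of receptor signalling, was at 333, 241 and 281 CPM in isotype and 218, 177 and 200.3 CPM in aPD1 tumors (-0.50 ± 0.20, adjusted p = 1.0). The immediate early and heat shock genes had a median of -0.18 over 24 genes, and 8 were lower in all 3 pools, among them Egr1, Egr2 and Hspa1a. The median was -0.11 over 26 cytotoxic effector genes, -0.06 over 26 exhaustion and activation genes, -0.18 over 11 memory and naive genes and -0.16 over 15 regulatory T cell genes, with 0 called in each. Lag3, another inhibitory receptor, was lower under aPD1 in each pool, at 284, 337 and 340.1 CPM against 194, 261 and 275 CPM, and so was Ccl5, at 1281, 1311 and 2705 CPM against 879, 1055 and 1018 CPM (-0.77 ± 0.33, adjusted p = 1.0).

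Pdcd1, the target of the antibody, was at 107, 203 and 182 CPM in T/NK cells of isotype tumors and 156, 254 and 178 CPM in those of aPD1 tumors (0.29 ± 0.36). It was higher in pools 3 and 5 and lower by little in pool 12. In cluster 3 Pdcd1 was higher under aPD1 in each pool, at 163, 345 and 236 CPM and 274, 357 and 288 CPM, and the groups overlapped (0.31 ± 0.22). In the Foxp3 cluster 8 it was at 34.7 and 29.0 CPM in the isotype tumors of pools 3 and 5, and at 84.9, 89.0 and 126 CPM in the aPD1 tumors (1.52 ± 0.60, adjusted p = 1.0). Cluster 8 had 2 cells in the isotype tumor of pool 12, which was left out of that fit. The 2 isotype values rest on 63 and 86 cells, and the median UMI count per cell of cluster 8 was 1375.5 over all tumors. These Pdcd1 levels thus stand on few counts, so the difference in cluster 8 is a description. Cd8a was at 313, 494 and 593 CPM and 387, 488 and 392 CPM over all T/NK cells (-0.11 ± 0.39).

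A large part of the Ifng counts stood on few cells. Ifng was at 644, 437 and 2231 CPM in T/NK cells of isotype tumors and 954, 823 and 588 CPM in aPD1 tumors, higher under aPD1 in pools 3 and 5 and lower in pool 12 (-0.21 ± 0.75). Cluster 13, with 16 to 35 cells a tumor, held 72.2%, 38.8% and 85.6% of the T/NK Ifng counts in the isotype tumors and 71.7%, 48.4% and 42.4% in the aPD1 tumors. Within cluster 13 Ifng was at 4193, 2116 and 10477 CPM in isotype and 13437, 8172 and 4380.4 CPM in aPD1 tumors (0.86 ± 0.91), with pool 12 again reversed. The share of cluster 13 cells with an Ifng count was 68.8, 62.9 and 81.2% in isotype and 44.4, 77.1 and 66.7% in aPD1 tumors. That share was lower under aPD1 in pools 3 and 12 and higher in pool 5. In cluster 3 it was higher under aPD1 in each pool, at 417, 413 and 688 CPM against 611, 565 and 713 CPM (0.38 ± 0.40, adjusted p = 1.0).

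The T/NK sum also held myeloid transcripts. Its cluster 12, led by Gzma, Gzmb and Icos, had all 9 T/NK markers and also 9 of the macrophage markers. The 10 macrophage markers summed to 495, 1114 and 158 CPM in T/NK cells of the isotype tumors and 1039, 1005 and 651 CPM in those of the aPD1 tumors, and 3 of them were at 0 in the isotype tumor of pool 12. The MHC class II genes H2-Aa, H2-Ab1, H2-Eb1 and Cd74, which macrophages and dendritic cells express strongly, were higher under aPD1 in all 3 pools of the T/NK sum, with a list median of 1.03 over 6 genes, 0 called, and 3.18 in pool 12. The part of the myeloid transcripts in these values was not tested.

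When the 18 clusters with enough cells were tested one by one, 4 of 91377 tests passed within their cluster, 3 higher and 1 lower under aPD1. At an unadjusted p under 0.05 there were 3094 (3.39%), and DESeq2 called 1 gene, Areg in cluster 21, and none of the 4. The count of calls was 0 without the pool as a block, 54 in CC002 tumors alone with the block, 113 with no filter on low levels and 1 to 3 with 1 pool left out. A cluster needed 10 cells in at least 2 tumors of each treatment, which 9 clusters did not reach.

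Both genes called in cluster 13 were higher under aPD1 (0.112% of 1789 genes). S100a6, a calcium-binding protein of the S100 family, was at 1121, 797 and 456 CPM in the isotype tumors and 4223, 1723 and 973 CPM in the aPD1 tumors (log2 1.41 ± 0.23, edgeR adjusted p = 0.000446). It was higher in each pool, but the pool 12 aPD1 tumor was below the pool 3 isotype tumor. Its counts were 50, 61 and 21 in the isotype tumors and 220, 144 and 70 in the aPD1 tumors, and 91 of the 220 stood on 1 cell. Crip1, a small LIM-domain protein, was at 1032, 562 and 325 CPM and 1996, 1220.4 and 1168 CPM (1.27 ± 0.25, adjusted p = 0.0109), with every aPD1 tumor above every isotype tumor (4.42% of genes of cluster 13). Crip1 counts were 46, 43 and 15 against 104, 102 and 84, with at most 26 on 1 cell.

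In the larger CTL cluster 3 S100a6 had a log2 difference of -0.10 ± 0.39 and Crip1 of -0.07 ± 0.16, and the difference between the clusters was not tested. Over all T/NK cells S100a6 had 0.04 ± 0.24. Lgals1, which encodes galectin-1, had 0.89 ± 0.22 in cluster 13 (adjusted p = 0.117) and 0.37 ± 0.15 in cluster 3. The calls in cluster 13 rest on 16 to 35 cells a tumor and a fit with 4 residual degrees of freedom. Without the pool as a block the adjusted p of S100a6 and of Crip1 was 1.0. Without the isotype and aPD1 tumor of pool 3 the adjusted p of S100a6 in cluster 13 was 0.157, without those of pool 5 it was 0.0635 and without those of pool 12 0.00749. For Crip1 in cluster 13 these values were 0.128, 0.272 and 0.98.

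Il2, the T cell growth factor, was called in the CD4 cluster 10 (adjusted p = 0.0475, 0.0960% of 1042 genes, log2 3.47 ± 0.66). Its counts there were 0 and 8 in the isotype tumors of pools 3 and 5 and 4, 65 and 1 in the aPD1 tumors, and 54 of the 65 stood on 1 cell of the aPD1 tumor of pool 5. The isotype tumor of pool 12 had 4 cells of cluster 10 and was left out. Il2 reached the minimum of 30 summed counts in cluster 10 only through the aPD1 tumor of pool 5, so that its call gives no support for a difference between treatments. In cluster 13, which held 40.0% to 98.5% of the T/NK Il2 counts of a tumor, Il2 was at 269, 444 and 1279.8 CPM in isotype and 2726, 2333 and 890.0 CPM in aPD1 tumors (1.65 ± 1.49, adjusted p = 1.0). These Il2 counts stood on 3, 6 and 3 cells of the isotype tumors and 5, 5 and 4 cells of the aPD1 tumors. A single cell held 97 of the 142 counts in the aPD1 tumor of pool 3 and 127 of the 195 in that of pool 5. The gene called lower was Hba-a1 in macrophage cluster 5 (-10.41 ± 1.47, adjusted p = 0.0069, 0.0128% of its genes), with 456 counts on 1 cell of the small isotype tumor and 0 to 6 counts in each of the other 5 tumors. Hba-a1 passed the filter in cluster 5 only through the small isotype tumor, so that its call gives no support for a difference either.

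**Figure D4:**
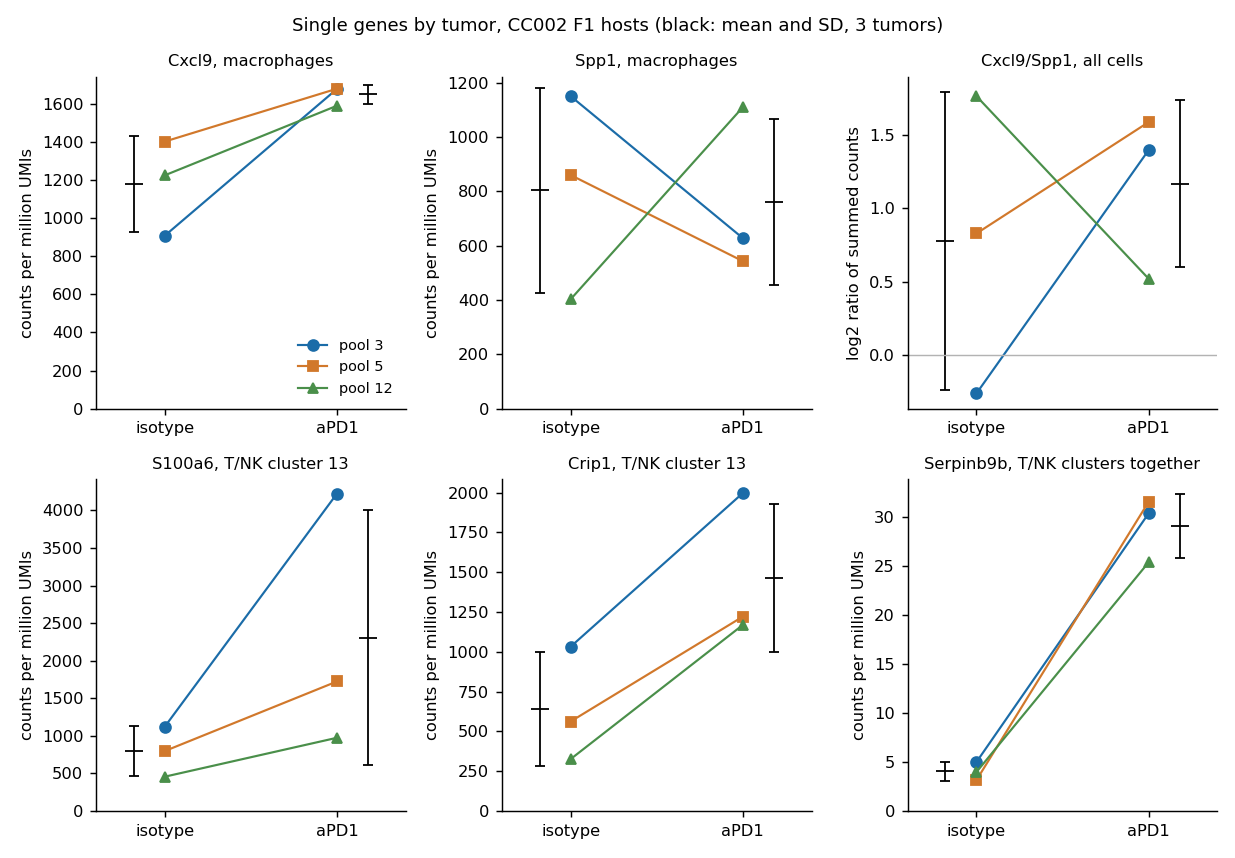
Levels of single genes by treatment (x axis), with 1 line per pool and the mean and SD of 3 tumors in black, in CPM except for the log2 Cxcl9/Spp1 ratio (upper right). Cxcl9, Crip1 and Serpinb9b are higher in every aPD1 tumor than in any isotype tumor, and the ratio is higher under aPD1 in pools 3 and 5 and lower in pool 12.

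The study used the ratio of Cxcl9 to Spp1 in bulk RNA-seq of tumors as a stand-in marker of the response to aPD1. Here the ratio of counts was computed over all sorted cells of a tumor. Its log2 was -0.26, 0.83 and 1.76 in the isotype tumors and 1.40, 1.59 and 0.52 in the aPD1 tumors. The aPD1 tumor was higher by 1.66 in pool 3 and 0.76 in pool 5 and differed by -1.24 in pool 12. Means were 0.78 ± 1.01 (SD) and 1.17 ± 0.57, a difference of 0.39 that was smaller than the spread of the isotype tumors (exact permutation p = 0.7). Of the Cxcl9 counts, cluster 26 held 21.5% to 44.6% and cluster 2 19.2% to 41.1% of a tumor.

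The aPD1 effect in CC002 F1 hosts was not shown to differ from that in the other 7 hosts. The difference between the effect in CC002 F1 tumors and the mean effect of the others was tested in the same fit. It called 0 of 7816 macrophage genes (140 at an unadjusted p under 0.05, 1.79%), 0 of 7830 T/NK genes (270, 3.45%) and 0 of 27 cluster shares (1, 3.70%). Against the mean of CC001 and CC075, the other 2 hosts that the study classed as responders, 0 macrophage genes (454, 5.81%) and 0 T/NK genes (353, 4.51%) were called. The median difference of the IFN-γ-induced macrophage genes was 0.66, 0.49 and -0.33 in the 3 CC002 F1 pools, 0.53, 1.03, 0.34 and 1.29 in the 4 CC001 pools, 0.08, 0.39 and 0.27 in the CC075 pools, and -0.16, -1.54 and 0.00 in the CC080 pools. It was 0.60, 0.46 and -0.23 in the CC079 pools and -0.61, 0.57 and -0.41 in the CC036 pools. The study classed CC036, CC079 and CC080 as non-responders. In the B6 pools it was 0.28, -0.34 and 0.52, and in the CC007 pools -0.37 and -0.07. The CC002 and CC080 tumors of pool 3 shared a library, as did the CC002 and CC079 tumors of pool 5 and the CC002 and CC001 tumors of pool 12. For the S and G2M phase genes of T/NK cells the medians were 1.39, 0.35 and 0.29 in the CC002 F1 pools and 0.26, -0.02 and 1.68 in the 3 pools of B6 hosts. They were 0.25, 0.25, -0.01 and 0.56 in the CC001 pools and 0.66, -0.29 and -0.23 in the CC075 pools. In the CC036 pools they were -0.10, 0.23 and -1.43, in the CC079 pools -0.59, 0.31 and 0.41, and in the CC080 pools -0.18, 0.39 and 1.02. The CC007 hosts had a value in pool 7 only, 0.21.

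**Figure D5:**
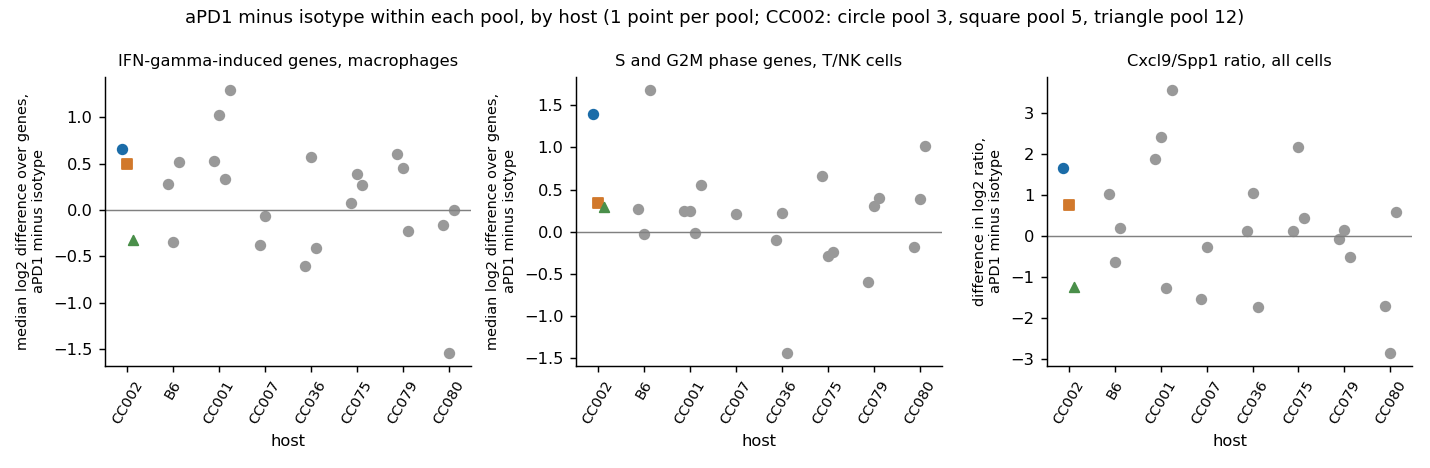
Difference between the aPD1 and the isotype tumor of each pool (y axis) by host (x axis), 1 point per pool, for the median log2 difference of IFN-γ-induced genes in macrophages, the same for S and G2M phase genes in T/NK cells, and the log2 Cxcl9/Spp1 ratio. The CC002 points (colored) spread from -0.33 to 0.66 in the left panel and from 0.29 to 1.39 in the middle panel, and points of other hosts lie on both sides of them.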

How the data were processed

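Single-cell RNA-seq of pooled, hashtagged tumors was deposited as a matrix of raw counts, 1 row per gene and 1 column per cell, with a table of cells. The authors made these counts with Cell Ranger from reads aligned to GRCm38 with GENCODE annotation, assigned cells to specimens by hashtag, removed cells rich in mitochondrial or ribosomal transcripts, and clustered them in Seurat 5.0.1 after regressing out the cell cycle and batch correction with harmony. Their clusters were used as deposited. No doublet caller was run here, and the methods do not name one, so cells of 2 types may remain in a cluster.

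Counts were summed per tumor and per cluster or class. Genes with a mean of at least 10 CPM and 30 summed counts in CC002 tumors, and tumors with at least 10 cells, entered edgeR 4.0.16 quasi-likelihood fits (TMM, robust) over all 48 tumors, with host and treatment as groups and the pool as a block. Fold changes are aPD1 minus isotype on the log2 scale with SE, and Benjamini-Hochberg adjustment ran over all genes of a fit with a threshold of 0.05. The SE of an edgeR fit was derived from its test, as the absolute log2 difference divided by the square root of the F statistic. Shares were tested on cell numbers in the same way with total cells as offset. Single values used the exact two-sided permutation test. DESeq2 1.42.0, other filters, library size scaling, a fit without the block, fits on CC002 tumors alone and leaving out 1 pool at a time were alternatives. R 4.3.3 and Python 3.11.15 were used, and fits were tested on simulated counts.

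The pool pairs the tumors by the labels, since both tumors of a pair shared a library. Correlations of same-pool deviations were 0.40, 0.23 and 0.44 in macrophages and 0.08, 0.06 and 0.12 in T/NK cells. Between different pools they ran from -0.48 to 0.29 in macrophages and from -0.10 to 0.04 in T/NK cells. The macrophage value of isotype pool 3 with aPD1 pool 5, 0.29, was above the same-pool value of pool 5. Each of the 6 CC002 tumors came from another animal. Named genes were those past the threshold, or the 5 of smallest p in a direction where fewer passed, 7 genes of the study's question, and list members of smallest p. Mmp12, Lag3, Ccl5, Prf1, Mki67, Lgals1 and the values within single clusters were chosen after their values were seen. The members and lists were chosen with earlier results of these data known. 1 gene is not reported here by name. The cells behind single counts were also looked up afterwards.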

Additional observations from a re-analysis of the deposited data

How the results depend on the processing

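Over 112 single genes and cluster shares, 1328 alternative values were computed, of which 1250 kept direction and side of the threshold, 46 lost the call, 13 gained one and 19 turned direction, in 12 of the 112. The 3 macrophage genes became 0 without the replicate block, 5 in CC002 tumors alone with the replicate block, 0 there with no replicate block, 0 by DESeq2, 1 with library size scaling, 0 with no filter, 0 without the smallest isotype tumor, 0 without clusters 5 and 26 (chosen after seeing the data), and 0 to 2 with 1 replicate left out. The 0 T/NK genes became 2 in CC002 tumors alone with or without the replicate block and 38 with no filter, and the 0 that differed from other hosts became 17 with no filter. The count of 4 calls within clusters became 0 without the replicate block, 54 in CC002 tumors alone with it, 17 without it, 1 by DESeq2 (Areg in cluster 21, none of the 4), 113 with no filter, 2 without the smallest tumor, 12 with at least 30 cells, 2 with adjustment over all clusters, and 1 to 3 with 1 replicate left out. The Cxcl9/Spp1 difference ran from -0.24 to 1.21 with 1 replicate left out and turned to -0.24 without replicate 1. Without the smallest tumor, differences turned to 0.39 for Hbb-bs, 0.0073 for Fabp5 and 0.0076 for Clec4d in macrophages, to 0.67 for Ifng, -0.25 for Cxcl9 and 0.11 for Cd8a in T/NK cells, and to -0.13 and 0.42 for the shares of clusters 2 and 3. With 1 replicate (pool) left out, values ran from -0.75 to 0.37 for Spp1 in macrophages (0.29 without pool 3), and in T/NK cells from -0.28 to 0.25 for Cd274, -0.85 to 0.77 for Ifng, -0.57 to 1.56 for Cxcl9, -0.045 to 1.62 for Spp1, -0.30 to 0.15 for Cd8a and -0.54 to 0.56 for Ikzf4. The share of cluster 2 ran from -0.32 to 0.68 and that of cluster 3 from -0.85 to 0.57, and the share of cluster 3 within its own class was 0.12. Without the replicate block the adjusted p of S100a6 in cluster 13 was 1.0 and that of Il2 in cluster 10 was 0.997. The causes were not tested. Clusters 10 and 13 could not be fitted with at least 30 cells, and their contrast with other hosts could not be fitted either. Among the 6 CC002 tumors the isotype tumor of pool 12 had the fewest cells and UMIs.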
